A study of Mus musculus with 72 samples.

Results

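Cadherins are calcium-dependent adhesion proteins that bind like partners across the cleft between cells, and in neurons they help match axons to targets and hold synapses together. The classical members reach the cytoskeleton through catenins, and the type II members are expressed in patterns that divide brain nuclei and circuits. Monomethylation of lysine 27 of histone H3 (H3K27me1) is known from the bodies of transcribed genes, whereas dimethylation of the same residue (H3K27me2) is spread over broad stretches of intergenic and silent chromatin. Polycomb enzymes can place both marks.

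The 10 genes described are Cdh2 and Cdh4 (type I classical cadherins), Cdh7, Cdh8, Cdh9, Cdh10, Cdh11, Cdh12 and Cdh18 (type II classical cadherins), and Cdh13, an atypical cadherin held in the membrane by a lipid anchor. They were chosen by name from 21924 protein-coding genes. Of 36113 differential sites in 5 deposited tables, 97 overlapped the body of one of these genes or the 1000 bp before its start.

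The study used CUT&RUN, in which a nuclease tethered by an antibody releases the DNA around a chromatin mark, on nuclei of the nucleus accumbens, the part of the ventral striatum that receives dopamine input in reward, from adult male wildtype mice. The whole series held 72 libraries in 21 groups. In 1 cohort, libraries of H3K27me1 and of H3K27me2 came from mice labelled Control, Susceptible or Resilient in chronic social defeat stress (CSDS), 4 libraries for each mark and group. In the other cohort the table compared H3K27me1 in mice that had Early life stress (ELS) and then Subthreshold defeat with mice of Standard rearing and no defeat (Standard - Control), 3 libraries each, so that comparison joins both stressors. The labels give neither the exact age nor whether a library is 1 animal or a pool, so a spread between libraries may be technical. Since the tissue holds many cell types, more nuclei with a mark and more of the mark per nucleus cannot be told apart. No table holds a level for tissue markers, so the labelled region could not be checked.

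Depth was 20.57 to 30.39 mean reads per 1000-bp bin in the H3K27me1 libraries of the defeat cohort, 10.56 to 40.63 in the H3K27me2 libraries and 5 to 7.78 in the ELS table. The shallowest H3K27me2 library was control library 52. The susceptible and resilient comparisons of a mark share the same 4 control libraries.

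The sites fell unevenly over marks and genes. In all 97 the authors' adjusted p was under 0.05, which is the call used throughout, but the tables list little else: 100% of all sites in the susceptible H3K27me1 table, 99.9% in the resilient H3K27me1 and susceptible H3K27me2 tables, 100% in the resilient H3K27me2 table and 96.7% in the ELS table were called. H3K27me1 sites numbered 50 in susceptible mice, in 9 of the 10 genes, and 21 in resilient mice, in 7 genes. H3K27me2 sites numbered 3 in susceptible mice, all in Cdh12, and 8 in resilient mice, of which 7 lay in Cdh12 and 1 in Cdh7. The ELS table held 15 H3K27me1 sites in 6 genes. Of 1808 protein-coding genes at least as long as Cdh9, the shortest of the 10, 874 held a called susceptible H3K27me1 site. A resilient H3K27me1 site was held by 801, and an ELS site by 1128.

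**Figure D1:**
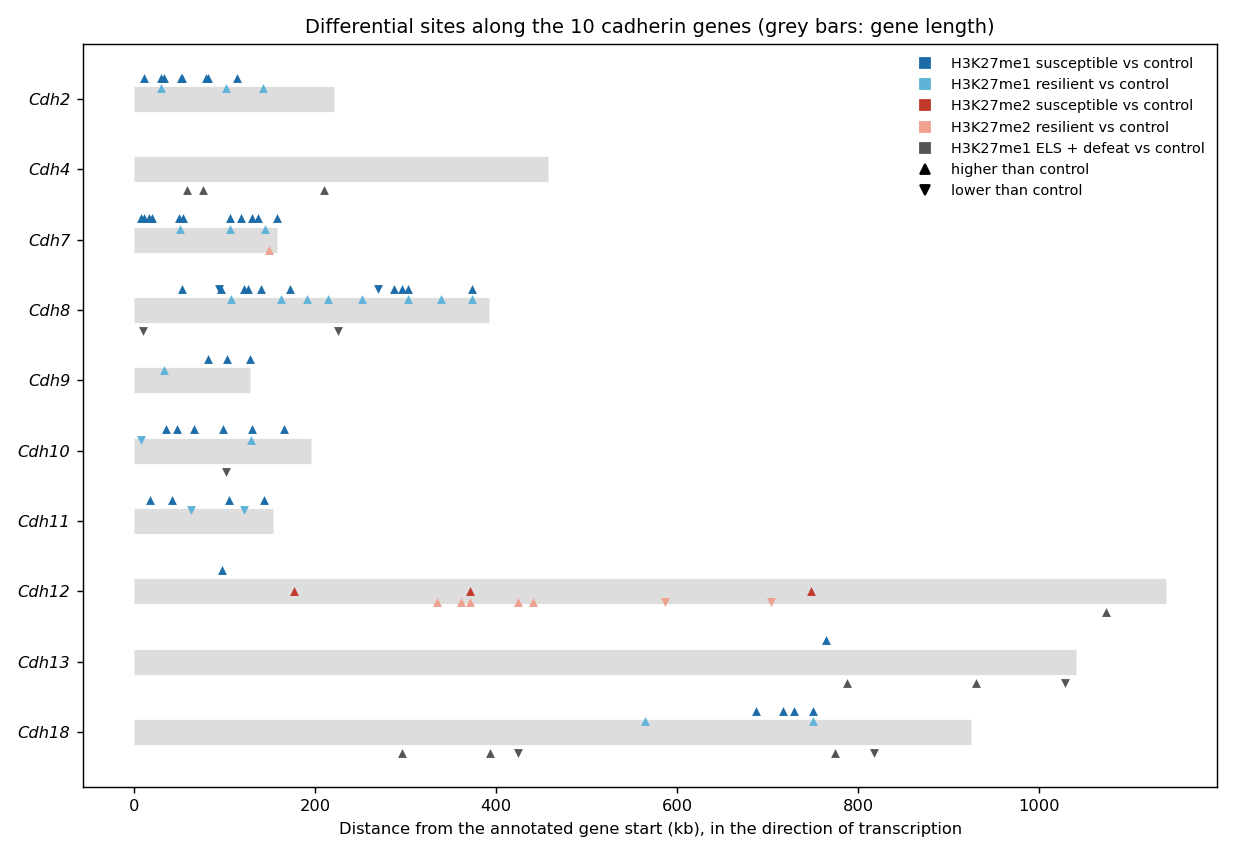
Differential sites along the 10 cadherin genes. The horizontal axis is the distance from the annotated gene start in kb, grey bars are gene lengths, colours are the 5 comparisons, and triangles point up for sites higher than control and down for sites lower than control. Blue H3K27me1 marks fill Cdh2, Cdh7, Cdh8, Cdh9, Cdh10 and Cdh11, whereas 10 of the 11 red H3K27me2 marks lie in Cdh12.

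The cadherin genes are long, from 128.3 kb (Cdh9) to 1140.3 kb (Cdh12), against a median of 17.4 kb over all protein-coding genes, so counts per gene have to be read with length. As the map of sites along the genes shows, nearly all sites were intronic by GENCODE M21 on mm10: 44 of 50 in susceptible H3K27me1, 20 of 21 in resilient H3K27me1, all 11 in H3K27me2 and 12 of 15 in the ELS table. The share of intron in these genes, and the intronic share of all listed sites, were not counted. None of the cadherin sites lay before a gene's start. Only 5 of the 97 touched coding sequence, 2 higher in susceptible mice (Cdh7 and Cdh9) and 3 lower after ELS plus defeat (Cdh8, Cdh13 and Cdh18).

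The coding stretches inside those 5 sites are shown because they are the parts of the proteins' reading frames that the differential sites reached. They were cut from GENCODE M21 transcripts (mm10), run 5′ to 3′ on the gene's strand, and carry CG dinucleotides in capitals as a view of base composition.
Cdh7 exon 9 of 11, chr1:110100021-110100138, plus strand: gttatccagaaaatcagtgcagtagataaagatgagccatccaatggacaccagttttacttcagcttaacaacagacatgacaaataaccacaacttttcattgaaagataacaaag
Cdh9 exon 5 of 11, chr15:16830887-16831074, plus strand: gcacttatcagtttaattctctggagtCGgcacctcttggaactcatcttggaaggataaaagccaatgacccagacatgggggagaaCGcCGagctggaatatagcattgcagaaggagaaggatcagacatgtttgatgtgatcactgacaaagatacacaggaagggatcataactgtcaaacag
Cdh8 exon 7 of 12, part inside the site, chr8:99190401-99190458, minus strand: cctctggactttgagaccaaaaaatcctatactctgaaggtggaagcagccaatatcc
Cdh13 exon 12 of 14, chr8:119312502-119312735, plus strand: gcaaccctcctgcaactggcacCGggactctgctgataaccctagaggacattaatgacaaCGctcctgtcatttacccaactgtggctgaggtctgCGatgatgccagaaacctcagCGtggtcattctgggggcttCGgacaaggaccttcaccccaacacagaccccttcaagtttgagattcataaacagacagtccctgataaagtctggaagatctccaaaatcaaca
Cdh18 exon 5 of 12, chr15:23366853-23367020, plus strand: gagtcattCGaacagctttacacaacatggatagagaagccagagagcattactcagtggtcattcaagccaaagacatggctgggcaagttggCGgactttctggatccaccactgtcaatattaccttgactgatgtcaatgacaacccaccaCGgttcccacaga
The Cdh7 exon had a GC content of 35.6% and no CG, the Cdh9 exon 45.2% and 3, the Cdh8 part 44.8% and none, the Cdh13 exon 50.4% and 5, and the Cdh18 exon 47.6% and 3. Each is a short piece of a site of 1000 to 2200 bp, most of which is intron.

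The first comparison asked where H3K27me1 differs between mice that are labelled susceptible after defeat and control mice. Of the 50 cadherin sites, 48 were higher in susceptible mice and 2 lower. Of all 12127 listed sites 50.3% were called higher, and among sites in protein-coding genes at least as long as Cdh9 77.8% were. In protein-coding genes whose transcripts have a GC content no higher than the cadherin median of 43.7% (called low GC here) the share was 77.7%, and the part of length and base composition in the cadherin count was not tested. The 48 higher sites had a median log2 fold change of 0.465 (0.35 to 0.65), against 0.43 over all higher sites. At 27 of the 50 the 4 susceptible libraries did not overlap the 4 controls, against 52.8% of all sites.

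Of the type I genes, Cdh2 (N-cadherin, found on both sides of excitatory synapses) held 8 sites, all higher, and Cdh4 (R-cadherin) none. The leading Cdh2 site, meaning the one of smallest authors' adjusted p in that gene, was chr18:16778801-16780600, an intronic site 30 kb from the start. It held 147.2, 171.6, 203.3 and 129.5 normalised reads in susceptible libraries and 114.9, 117.5, 107.7 and 127.8 in controls. The lowest susceptible library stood just above the highest control. The means were 162.9 ± 31.98 and 117.00 ± 8.3 (SD, n = 4 libraries each), a limma difference of 0.46 ± 0.14 (SE, log2 scale), with an authors' adjusted p of 1.4e-05. At 6 of the 8 Cdh2 sites the groups did not overlap. The largest difference in the gene was at chr18:16695001-16696200, where susceptible libraries held 108.7, 93.9, 94.4 and 82.1 normalised reads and controls 52.4, 71.4, 60.8 and 62.1, an authors' log2 fold change of 0.62.

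Cdh7, a type II cadherin, had the densest set. Its 11 sites were all higher and came to 6.93 per 100 kb of gene, rank 11 among 1808 protein-coding genes at least as long as Cdh9, where the median of the 874 genes with any site was 1.22. The sites ran from 7 to 158 kb from the start. Its leading site, chr1:110118601-110120100 in an intron, had the largest log2 fold change of the 50. Susceptible libraries held 125.5, 149.9, 134.3 and 113.98 normalised reads there and controls 90.1, 82.95, 76.8 and 83.4. The lowest susceptible library stood 23.9 normalised reads above the highest control. The means were 130.9 ± 15.2 and 83.3 ± 5.4 (SD, n = 4 each), and the limma difference was 0.64 ± 0.14 (SE), with an authors' adjusted p of 1.33e-07.

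The site over Cdh7 exon 9, chr1:110099401-110101600, was the longest of the 50 at 2200 bp. It read 293.4, 253.8, 197.2 and 198.8 in susceptible libraries and 163.7, 203.9, 162.1 and 173.1 in controls. Here the groups overlapped, since 2 susceptible libraries fell below the highest control. This site and chr1:109992401-109993700 were the only 2 of the 50 within 1000 bp of an annotated transcript start, in both cases an alternative start inside the gene. The last Cdh7 site, chr1:110139601-110141500, covered the end of the gene and just met the rule, with 556 bp inside. Its means were 157.9 ± 19.3 and 111.5 ± 11.3 (SD, n = 4 each). The nearest site that missed the rule began 1644 bp past the gene's end, chr1:110141801-110142800, and was higher too, at 90.54 against 64.54 by the authors' means.

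Cdh8, a type II cadherin of corticostriatal and other forebrain projections, held the most sites, 12, and was the only member with both directions in susceptible mice: 10 higher and 2 lower. The leading site, chr8:99041901-99043800, lies in an intron 374 kb from the start. It held 195.6, 229.4, 202.1 and 165.1 normalised reads in susceptible libraries and 139.8, 168.2, 120.5 and 158.00 in controls, so the lowest susceptible library fell inside the control range. The limma difference was 0.43 ± 0.13 (SE, n = 4 each) and the authors' adjusted p 1.16e-05.

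The lower Cdh8 site at chr8:99322001-99323000 lay 400 bp from a higher one at chr8:99320201-99321600. At the lower site susceptible libraries held 88.9, 83.98, 59.3 and 61.1 normalised reads and controls 69.9, 131.3, 105.6 and 94.1. At the higher site the values were 104.7, 165.3, 94.4 and 149.6 and 88.3, 108.3, 99.2 and 90.5. The groups overlapped at both sites, and at the lower one control library 25 fell among the susceptible libraries. The other lower site, chr8:99146401-99147400, did separate the groups, with 62.2, 61.4, 77.4 and 63.8 against 95.6, 88.7, 100.3 and 79.9. It overlaps an annotated non-coding gene, Gm15681, inside Cdh8.

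The remaining type II genes were higher at each of their sites. Cdh10 had 6 sites and led with chr15:18853201-18854500, where susceptible libraries held 103.7, 161.7, 112.5 and 132.2 normalised reads and controls 96.5, 99.1, 81.1 and 79.00 (authors' adjusted p 3.47e-05). Cdh11, a cadherin first known from mesenchymal cells and bone and also present in neurons, had 4 sites. Its leading one, chr8:102743301-102744700, held 142.2, 136.4, 128.3 and 166.9 against 109.4, 124.4, 83.2 and 109.2 normalised reads. In both genes the leading site separated all susceptible from all control libraries, in Cdh10 by 4.65 normalised reads and in Cdh11 by 3.83.

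Cdh9, a type II cadherin that takes part in forming hippocampal mossy fibre synapses, had 3 sites, none of which separated the groups. Its leading site lies over exon 5, chr15:16830301-16831400, and held 98.8, 111.1, 122.2 and 78.4 normalised reads in susceptible libraries and 83.7, 76.04, 70.4 and 71.01 in controls. Susceptible library 35 was inside the control range. Cdh18, a cadherin expressed mainly in the nervous system, had 4 sites, all between 688 and 750 kb from its start, and the leading one, chr15:23298401-23299800, read 123.5, 148.1, 91.96 and 104.9 against 91.03, 92.2, 85.3 and 74.6. There susceptible library 32 did not exceed the highest control.

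Cdh12 and Cdh13, each over 1000 kb long, had a single H3K27me1 site apiece. In Cdh12, chr15:20545501-20546700 held 80.02, 109.3, 82.3 and 88.5 normalised reads in susceptible libraries and 57.01, 64.5, 70.4 and 54.1 in controls. In Cdh13, also called T-cadherin, chr8:119047901-119049300 held 104.7, 101.1, 122.2 and 93.9 and 75.4, 79.5, 80.00 and 63.02. Both separated the groups. Their densities of 0.0876 and 0.096 per 100 kb ranked 874 and 871 among the 874 long genes with any site, at the other end from Cdh7. The control enrichment over IgG at the Cdh12 site was 0.8, under the antibody background, whereas the other 47 higher sites had control enrichments of 1.16 to 3.29.

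**Figure D2:**
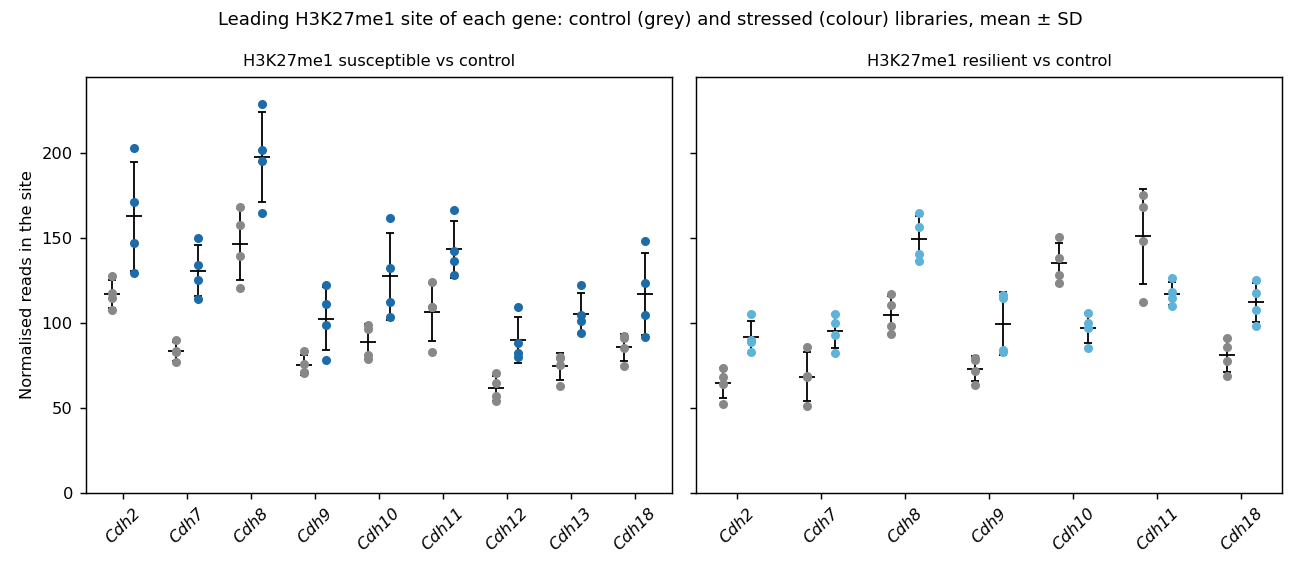
Normalised reads per library at the leading H3K27me1 site of each gene, in susceptible (left) and resilient (right) comparisons, grey for control and blue for stressed libraries. Horizontal ticks and bars are mean ± SD (n = 4 libraries each). All 9 leading sites on the left have higher means in susceptible libraries, and on the right Cdh10 and Cdh11 have lower means in resilient libraries.

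Libraries contributed unevenly, as the per-library plot of the leading sites shows. Over the 48 higher sites, susceptible library 29 had a median log2 ratio to the control mean of 0.59, libraries 26 and 35 had 0.44 and 0.43, and library 32 had 0.34. Library 32 was above the control mean at 45 of the 48, and the other susceptible libraries at all 48. With limma on log2(normalised reads + 1), which keeps the spread between libraries, all 50 cadherin sites had an unadjusted p under 0.05, as did 98.9% of all sites. After adjustment over the 270324 windows the authors tested, none did, nor did any other site (0% of all sites), and the smallest cadherin adjusted p was 0.284. Sites were selected on these same libraries, so neither count is separate support.

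The resilient comparison asked the same of mice labelled resilient. Of its 21 cadherin H3K27me1 sites 18 were higher and 3 lower, with 51.6% of all 7015 sites of the table, 62.9% of called sites in long genes and 55.3% in genes of low GC higher. The 18 had a median log2 fold change of 0.475 (0.39 to 0.55). At 13 of the 21 the libraries did not overlap, against 54.7% of all sites.

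Cdh8 held 8 of the 21, all higher. Its leading site, chr8:99225301-99227100, is intronic and overlapped no susceptible site. It held 140.5, 165.2, 156.8 and 136.8 normalised reads in resilient libraries and 93.3, 117.3, 98.1 and 110.8 in controls. The means were 149.8 ± 13.4 and 104.9 ± 11.1 (SD, n = 4 each), a limma difference of 0.51 ± 0.13 (SE), with an authors' adjusted p of 4.09e-05. All 4 resilient libraries were higher than all 4 controls. Neither of the lower susceptible Cdh8 sites overlapped a resilient one.

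Cdh2 and Cdh7 had 3 higher sites each. The leading Cdh2 site, chr18:16779401-16780400, held 105.6, 83.1, 90.2 and 88.6 normalised reads against 64.1, 73.5, 52.3 and 68.1. The leading Cdh7 site, chr1:110032101-110033100, held 82.6, 105.3, 93.1 and 100.2 against 67.9, 68.7, 86.1 and 50.9. The Cdh2 groups separated, while in Cdh7 control library 31 exceeded 1 resilient library. At another Cdh7 site, chr1:110125801-110126800, the same control library held 23.99 normalised reads against 53.8 to 81.8 in the other controls.

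In resilient mice the leading sites of Cdh10 and Cdh11 were lower than control. In Cdh10, chr15:18825401-18827000, 7 kb into the gene, held 97.05, 99.8, 85.3 and 105.98 normalised reads in resilient libraries and 123.5, 150.5, 138.5 and 128.1 in controls, without overlap (limma difference -0.47 ± 0.14, SE, authors' adjusted p 0.000318). Its other site was higher, at 118.6 ± 5.5 against 90.8 ± 11.8 (SD, n = 4 each). Both Cdh11 sites were lower, and the leading one, chr8:102723001-102724200, held 114.9, 126.4, 109.8 and 118.5 against 175.4, 168.3, 148.3 and 112.7, where control library 34 fell among the resilient libraries. The 6 susceptible Cdh10 sites and the 4 susceptible Cdh11 sites were all higher, and none overlapped a resilient site. In both genes the directions therefore do not concern the same DNA, and the difference between the groups was not tested.

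The single Cdh9 site, chr15:16760601-16761600, held 84.3, 116.4, 114.7 and 82.8 normalised reads in resilient libraries and 78.3, 79.4, 63.2 and 71.8 in controls. In Cdh18 the leading site, chr15:23298301-23299600, held 125.1, 117.5, 107.8 and 98.3 and 85.8, 91.3, 77.4 and 69.04. Both separated the groups, the Cdh9 site by 3.44 normalised reads. Cdh4, Cdh12 and Cdh13 had no resilient H3K27me1 site. With limma, 21 of 21 cadherin sites had an unadjusted p under 0.05 (99.6% of all sites) and none an adjusted p under 0.05 over 275586 windows (0% of all sites), the smallest being 0.436. Here too the sites were selected on the same libraries.

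Susceptible and resilient H3K27me1 sites overlapped in 6 places, in Cdh2, Cdh7 (2), Cdh8 (2) and Cdh18, which is 12% of the 50 susceptible and 28.6% of the 21 resilient sites. The share that overlaps over all sites of both comparisons was not counted. All 6 cadherin overlaps were higher in both, but the comparisons share their controls. The Cdh7 site chr1:110087901-110088900 had identical boundaries in both tables. Susceptible libraries held 75.1, 90.3, 84.7 and 87.5 normalised reads there, resilient libraries 95.3, 85.3, 76.4 and 87.7, and controls 59.8, 51.9, 58.7 and 69.2 as scaled in the susceptible table or 61.3, 53.3, 59.97 and 70.9 as scaled in the resilient table. Every stressed library exceeded every control. The Cdh18 sites overlapped by 1200 bp, with means of 117.1 ± 24.4 in susceptible, 112.2 ± 11.7 in resilient and 85.8 ± 8.1 or 80.9 ± 9.7 in control libraries (SD, n = 4 each).

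**Figure D3:**
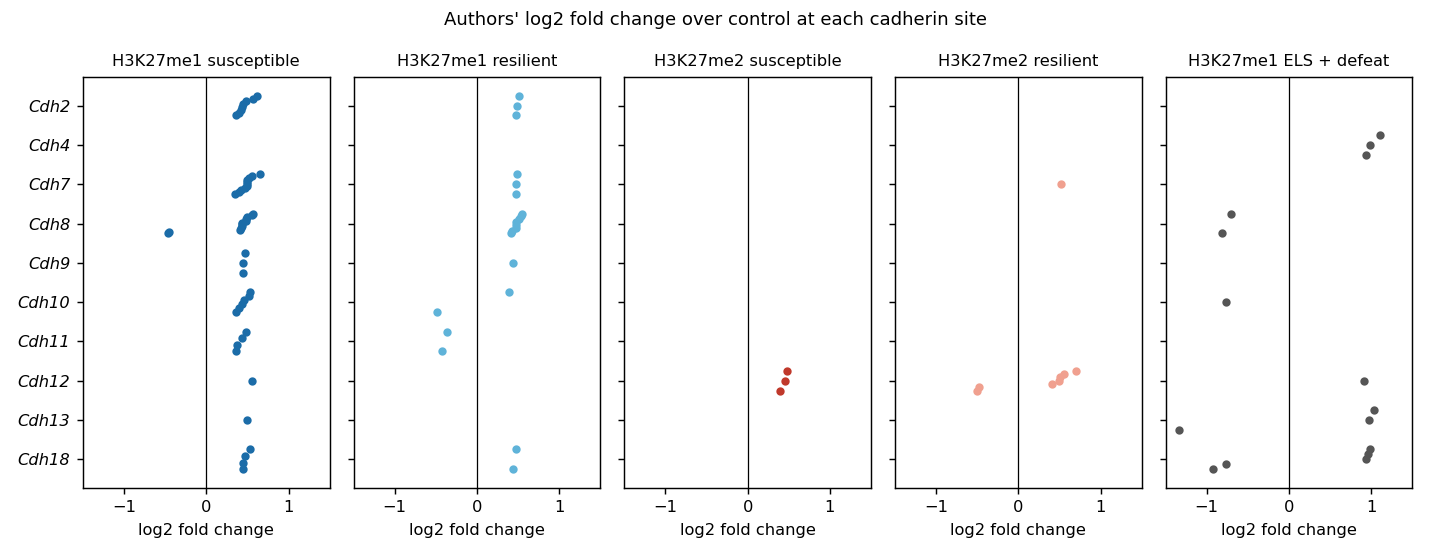
Authors' log2 fold change over control at each of the 97 cadherin sites, by gene (rows) and comparison (panels, with 1 point per site and the vertical line at 0). Points of the defeat tables sit between -0.5 and 0.7 with a gap around 0 that the tables' p limit leaves, and those of the ELS table between -1.34 and 1.1.

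H3K27me2 sites were listed in fewer of the genes than H3K27me1 sites. In susceptible mice the 3 cadherin H3K27me2 sites were higher, against 69.3% of all 2078 sites called higher and 72% of those in long genes (64% in genes of low GC), and 2 of the 3 did not overlap between groups (56.9% of all sites). In resilient mice 6 were higher and 2 lower, against 79.5% of all 4659 sites called higher, 67.2% of those in long genes and 73.1% in genes of low GC, and 6 of the 8 did not overlap (58.6% of all sites). Cdh2, Cdh4, Cdh8, Cdh9, Cdh10, Cdh11, Cdh13 and Cdh18 had none in either group. Most long genes had none either: of 1808, only 77 held a called susceptible and 106 a called resilient H3K27me2 site. The plot of log2 fold changes by gene shows 10 of the 11 H3K27me2 sites in Cdh12. Per 100 kb Cdh12 held 0.263 susceptible H3K27me2 sites, rank 53 of the 77 long genes with a site (median 0.462). In resilient mice it held 0.613, rank 44 of 106, and Cdh7 held 0.63, rank 40 (median 0.496).

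The tables of both marks also differ in where their sites lie. Only 11.3% and 9.55% of called H3K27me2 sites in susceptible and resilient mice lay in protein-coding genes, against 87.4% and 86% of H3K27me1 sites. The cadherin genes held 0.412% and 0.3% of called H3K27me1 sites and 0.145% and 0.172% of called H3K27me2 sites. Of called sites in protein-coding genes they held 0.472% and 0.349% for H3K27me1 and 1.28% and 1.8% for H3K27me2. The authors' adjustment covered 48304 and 52728 windows for H3K27me2, fewer than for H3K27me1, and a gene without a listed site may have had no tested window. The 2 marks come from separate libraries with separate scaling, so their levels were not tested against each other.

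The leading resilient site in Cdh12, a brain cadherin, was chr15:20820101-20821500, 372 kb into the annotated gene. Resilient libraries held 113.6, 131.9, 128.7 and 112.2 normalised reads and controls 83.2, 67.6, 70.4 and 79.1. The lowest resilient library stood 29.04 normalised reads above the highest control. The means were 121.6 ± 10.2 and 75.1 ± 7.3 (SD, n = 4 each), a limma difference of 0.69 ± 0.15 (SE), and the authors' adjusted p was 1.47e-08, the smallest of any cadherin H3K27me2 site.

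A further 4 higher resilient sites lay around it, from 334 to 441 kb, and at each the resilient libraries exceeded all controls. At chr15:20889401-20891400 they held 186.2, 158.6, 187.3 and 174.4 against 140.1, 137.7, 74.3 and 126.4 normalised reads. There control library 55 was far under the other 3. At chr15:20810301-20811400 the values were 97.8, 89.8, 89.3 and 85.5 and 74.2, 41.1, 63.7 and 79.1, and there the shallow control library 52 was the lowest. That library was the lowest control at 4 of the 8 resilient H3K27me2 sites, and the direction of all 8 held without it. At 6 of the 8 the groups did not overlap, so leaving it out could not reverse the direction there.

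The 2 lower resilient sites lay in the middle of Cdh12, at 51.4% and 61.7% of its length. At chr15:21035101-21036400, 586 kb from the start, resilient libraries held 69.4, 68.8, 102.8 and 76.6 normalised reads and controls 92.7, 118.3, 130.3 and 103.1. At chr15:21152701-21153700 they held 49.4, 72.03, 68.2 and 36.7 and 78.03, 96.6, 70.4 and 74.4. The groups overlapped at both lower sites. In susceptible mice a higher site lay further on, chr15:21196701-21198000, with 99.2, 145.03, 113.5 and 111.2 against 98.4, 76.9, 76.8 and 91.5 normalised reads and an authors' adjusted p of 0.000697. The groups did not overlap there, but susceptible library 50 was only 0.8 normalised reads above control library 49.

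**Figure D4:**
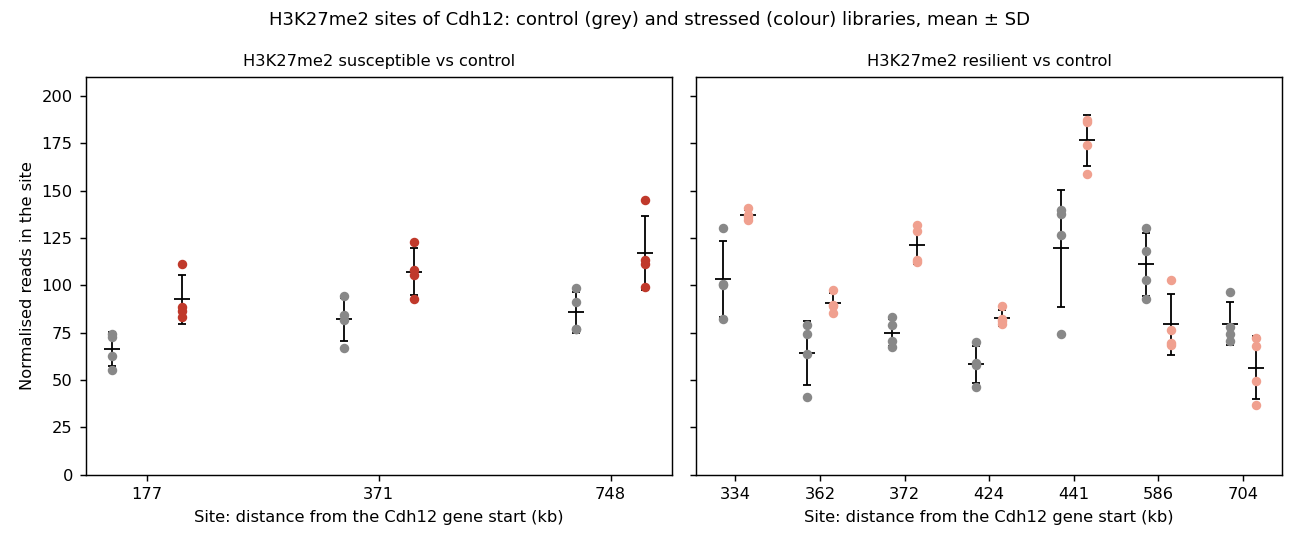
Normalised reads per library at each H3K27me2 site of Cdh12, ordered by distance from the gene start in kb, for susceptible (left) and resilient (right) comparisons. Grey points are control and red points stressed libraries, with mean ± SD (n = 4 libraries each), and the 5 resilient sites at 334 to 441 kb are higher and those at 586 and 704 kb lower than control.

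The annotation of this gene matters for those positions. The start that RefSeq gives for Cdh12 lies 662 kb inside the GENCODE gene. All 5 higher resilient H3K27me2 sites, 2 of the 3 susceptible ones and the susceptible H3K27me1 site lie before the RefSeq start, within Gm49685, a non-coding gene listed at chr15:20449119-20979940 on the same strand as Cdh12. Both lower resilient sites lie outside Gm49685, 1 before and 1 after the RefSeq start. The plot of Cdh12 H3K27me2 values by distance shows this order. Cdh18 has a RefSeq start 487 kb inside the GENCODE gene, and all of its defeat-cohort sites lie after it.

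Susceptible and resilient H3K27me2 sites met once, in Cdh12, where chr15:20819201-20820500 and chr15:20820101-20821500 overlapped by 400 bp. Susceptible libraries held 92.6, 108.00, 105.7 and 122.8 normalised reads at the first and controls 81.9, 66.96, 84.6 and 94.6. The authors' log2 fold changes were 0.39 in susceptible and 0.70 in resilient mice, over shared controls, and the groups overlapped in the susceptible comparison only. No H3K27me1 site overlapped an H3K27me2 site in any cadherin gene, and how often they overlap elsewhere was not counted. The closest cadherin pair was in Cdh7 in resilient mice, where the H3K27me2 site chr1:110131201-110132200 lay 4.4 kb from an H3K27me1 site. It held 78.9, 75.3, 92.2 and 75.5 normalised reads in resilient libraries and 58.2, 53.1, 57.9 and 55.05 in controls, without overlap. At that H3K27me1 site, chr1:110125801-110126800, H3K27me1 was also higher, but the groups overlapped and control library 31 was far under the other controls. In Cdh12 the nearest H3K27me1 site of susceptible mice was 78.8 kb from an H3K27me2 site.

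With limma, 3 of 3 susceptible and 8 of 8 resilient H3K27me2 sites had an unadjusted p under 0.05, against 93.6% and 95.7% of all sites, all selected on the same libraries. None passed after adjustment over the windows (0% of all sites in both tables), where the smallest adjusted p values were 0.577 and 0.207. The limma values changed with the scaling of the libraries. With libraries scaled by their median ratio over the deposited sites, which shifted the median log2 change of all sites by -0.29 in the susceptible and -0.39 in the resilient table, 0 of 3 and 3 of 8 had an unadjusted p under 0.05. The directions stayed 3 higher and 0 lower, and 6 and 2. The limma difference then fell from 0.44 to 0.15 at the leading susceptible site of Cdh12, from 0.51 to 0.12 at the resilient site of Cdh7 and from 0.69 to 0.30 at the leading resilient site of Cdh12. The 2 lower resilient sites of Cdh12 moved to -0.88 and -0.92, with adjusted p values of 0.017 and 0.0241 by limma, and 0 of the 6 higher ones passed after adjustment. The sites used for this scaling were selected as differential, and 69.3% (susceptible) and 79.5% (resilient) of them were called higher. Scaling over them draws all changes down, so it cannot tell a real rise from a difference in library scaling.

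Cdh9, Cdh10, Cdh12 and Cdh18 follow one another on chromosome 15 in a stretch of 6.75 Mb with only 5 protein-coding genes, so their surroundings are large gene-poor intervals. Over that stretch 44 resilient H3K27me2 sites were called, 7 in the cadherin genes and 37 between them, of which 29 were higher. For H3K27me1, 14 of 21 susceptible, 5 of 7 resilient and 7 of 21 ELS sites lay inside the cadherin genes, which make up 2.39 Mb of the stretch. The susceptible H3K27me2 table held 9, of which 3 were in Cdh12. Just outside the rule, 1547 bp before the counted region of Cdh10, the site chr15:18813801-18816400 was higher in susceptible mice for H3K27me1, at 392.53 against 301.15 by the authors' means.

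The ELS comparison asked how H3K27me1 differs when early life stress is followed by a mild, subthreshold defeat, against neither. Of 15 cadherin sites 9 were higher and 6 lower, with 64.7% of all 10234 sites, 66.2% of called sites in long genes and 47.9% in genes of low GC higher. The groups did not overlap at any of the 15, but the same held for 98.8% of all sites. None of the 15 overlapped a site of the defeat cohort, and how often other ELS sites did was not counted. Cdh2, Cdh7, Cdh9 and Cdh11, which had H3K27me1 sites in both defeat comparisons, had none here, and Cdh4, which had none there, had 3 higher sites. The 6 of 10 cadherin genes with a site compare with 1128 of 1808 long genes.

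Higher ELS sites were low-level regions. In Cdh4 the leading site, chr2:179499701-179500800, held 30.96, 39.2 and 36.7 normalised reads in ELS plus defeat libraries and 10.9, 15.6 and 23.5 in standard controls, an authors' log2 fold change of 1.10. The control enrichment over IgG was 0.51 and the stressed one 0.95, so neither group exceeded the antibody background. In Cdh12, chr15:21522501-21523700 held 41.3, 55.99 and 45.3 against 27.7, 21.4 and 27.02 normalised reads. In Cdh18, chr15:23322801-23323900 held 52.8, 58.8 and 46.4 against 26.7, 32.1 and 23.5. Over the 9 higher sites control enrichment was 0.42 to 0.78 and stressed enrichment 0.95 to 1.7, and over all higher sites of the table the control median was 0.62.

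Lower ELS sites had higher control levels, as they did over the whole table. There the median control enrichment was 1.51 at lower and 0.62 at higher sites. Direction was called on these same control values, so the contrast is partly built into the selection and is not particular to the cadherin genes. In Cdh8, chr8:99406601-99407800, 9 kb into the gene, held 66.5, 73.7 and 73.4 normalised reads in ELS plus defeat libraries and 124.5, 104.96 and 118.6 in controls, with means of 71.2 ± 4.1 and 116.00 ± 10.01 (SD, n = 3 each). Enrichment was 1.52 against 4.08. In Cdh10, chr15:18919801-18920800 held 60.8, 63.5 and 40.99 against 89.9, 103.02 and 89.8 normalised reads, yet its enrichment was 2.5 in stressed and 2.3 in control groups, opposite to the reads. Such an opposite enrichment occurred at 1.63% of all sites of the table, 6.79% in the susceptible H3K27me1 table (2 of 50 cadherin sites) and 9.67% in the resilient H3K27me1 table (3 of 21).

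The 3 coding-exon sites of the ELS table were all lower, and no higher cadherin site of that table touched coding sequence. How often the lower and higher sites of the whole table touch coding sequence was not counted. Over Cdh13 exon 12, chr8:119312001-119313000, ELS plus defeat libraries held 10.3, 15.9 and 9.7 normalised reads and controls 21.7, 34.02 and 34.9. This was the largest change of the 97 sites, an authors' log2 fold change of -1.34, on the fewest reads. Over Cdh8 exon 7, chr8:99190401-99191500 held 37.8, 37.3 and 49.6 against 68.2, 71.9 and 78.5. Over Cdh18 exon 5, chr15:23366001-23367200 held 57.3, 56.9 and 33.4 against 85.96, 78.7 and 88.05. In each case every stressed library was under every control.

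**Figure D5:**
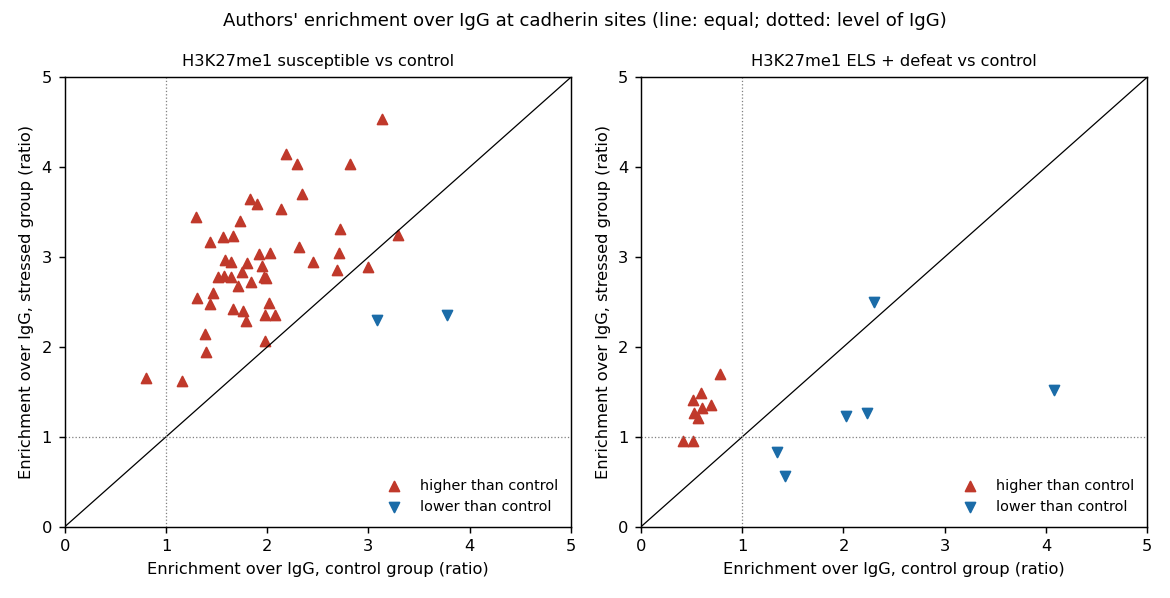
Authors' enrichment over IgG (ratio) at cadherin H3K27me1 sites, control group on the horizontal and stressed group on the vertical axis, for susceptible mice (left) and ELS plus defeat (right). The solid line marks equal enrichment and dotted lines the IgG level. On the right the 9 higher sites lie at control enrichments of 0.42 to 0.78 and the 6 lower ones at 1.34 to 4.08, and on the left control enrichments run from 0.8 to 3.78.

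The plot of enrichment over IgG sets the ELS sites beside the susceptible ones, where higher sites had a median control enrichment of 1.83 against 2.28 over all higher sites. With limma, 15 of 15 ELS cadherin sites had an unadjusted p under 0.05, as did 99% of all sites, and 15 an adjusted p under 0.05 over 1287727 windows, as did 95.8% of all sites, the smallest being 0.00313 in Cdh10. The ELS sites too were selected on these same libraries, so neither count is separate support. With 1 library left out the count passing fell to between 2 and 13: to 2 without standard control library 37, 5 without 45 and 7 without 41, and to 8 without ELS plus defeat library 44 and 7 without 48. With libraries scaled by their median ratio over the deposited sites, a shift of -0.61 in the median log2 change of all sites, 6 passed and the directions stayed 9 higher and 6 lower. These were the 6 lower sites. Of the 9 higher sites 1 then had an unadjusted p under 0.05 and 0 an adjusted one. Of the sites used for this scaling 64.7% were called higher, so it draws all changes down. That only lower sites passed therefore cannot be read as a stronger effect in that direction. The limma difference at the leading site moved from 1.11 to 0.51 in Cdh4, from 0.88 to 0.27 in Cdh12 and from 0.92 to 0.31 in Cdh18, and at the lower leading sites from -0.69 to -1.31 in Cdh8, from -0.79 to -1.40 in Cdh10 and from -1.27 to -1.85 in Cdh13.

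Other cadherins and cadherin partners, meaning catenins and proteins that bind or cut cadherins, give the setting. Of 13 other cadherins (Cdh1, Cdh3, Cdh5, Cdh6, Cdh15, Cdh16, Cdh17, Cdh19, Cdh20, Cdh22, Cdh23, Cdh24 and Cdh26) none held a called site in the 4 defeat tables. After ELS plus defeat 4 of the 13 held 6 sites, 5 of them higher, including 2 in Cdh20 and 2 in Cdh22. Of 16 partners, 8 held 58 susceptible H3K27me1 sites (51 higher), 7 held 43 resilient ones (27 higher), 1 held 1 susceptible and 1 held 2 resilient H3K27me2 sites, all higher, and 5 held 19 ELS sites (13 higher). The share called higher over all sites was 50.3% for susceptible H3K27me1, 51.6% for resilient H3K27me1 and 64.7% for ELS. In long genes it was 77.8%, 62.9% and 66.2%. For susceptible and resilient H3K27me2 it was 69.3% and 79.5% over all sites. Over the 5 tables Ctnnd2 (delta-catenin, a neuronal catenin) held 43 sites, 37 higher. Ctnna2 (alpha-N-catenin, which links cadherins to actin) held 36, 30 of them higher, and Ctnna3 held 20, 16 of them higher. The totals over the 5 tables add both marks and comparisons that share controls. These lists were chosen with earlier results known, and these counts too are not corrected for gene length.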

How the data were processed

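The submitters' processing notes list mm10 and, without role or order, MACS2 2.2.6, Bowtie2 2.4.1, cutadapt 2.10, SAMtools 1.10 and Trim Galore 0.6.5. Per the file headers, the authors called differential sites with diffReps 1.55.4 (windows of 1000 bp, steps of 100 bp, fragments of 100 bp, p limit 0.0001) from unique alignments without duplicates. The headers name a G-test, which ignores the spread inside a group, for the defeat tables, and a negative binomial test for the ELS table. The defeat tables are named as if from the latter test, and the headers were followed. The deposited signal, per library and as a group mean, is a read number scaled by each library's constant in the header. Enrichment, as deposited by the authors, is the ratio of a group's signal to IgG. The deposited log2 fold changes set stressed over control means, by the authors. The deposited p-value and adjusted p-value (Benjamini-Hochberg over the tested windows) are the authors' own.

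Groups and library numbers came from the sample titles. A site was assigned to a gene by any overlap with its body or the 1000 bp before its start (GENCODE M21), and called at an authors' adjusted p under 0.05. Means and SD were computed from the per-library values, and limma 3.58.1 (R 4.3.3, with trend) was fitted on log2(signal + 1) over every site of a table, after a check on simulated data. Differences by limma are on that scale, which understates changes of low values. Python 3.11.15, pandas 2.3.3 and numpy 2.4.6 did the rest, and RefSeq (GRCm38.p6) starts matched 6 of the 10 genes. The smallest authors' adjusted p, among sites with a mean of at least 10, set each gene's leading site, and all 10 genes are named. Sites named beyond the leading and overlapping ones were chosen after their values were seen, as were library comparisons. Of the other cadherins and partners, up to 3 genes with most sites are named. The members, lists and rules were chosen with earlier results of these data known. Alternatives were stricter thresholds, other gene borders, pseudocounts, scaling, and leaving out each library. The number of libraries, 3 or 4 a group, limits the precision.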

Additional observations from a re-analysis of the deposited data

How the results depend on the processing

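No paired analysis was possible because the labels give the groups compared no shared replicate number. The planned quasi-likelihood count test on reads recovered from the deposited values was not run. At an authors' adjusted p under 0.001 the cadherin sites fell to 29 in susceptible H3K27me1, 4 in resilient H3K27me1 and 1 in susceptible H3K27me2. All 8 resilient H3K27me2 sites stayed, so in resilient mice H3K27me2 then had more cadherin sites than H3K27me1. The ELS table kept 0 under 0.001. Under 0.01 it kept 6, of which 2 were higher, against 9 higher of 15 at 0.05. These are stricter thresholds on the same values. Other gene borders, an overlap by the site's midpoint and a minimum of 10 reads kept these counts within 1.5 times. With limma adjusted over the deposited sites alone instead of all windows, 50, 21, 3 and 8 sites of the 4 defeat tables passed, because fewer tests were counted. Scaling libraries by their median ratio over the deposited sites moved the median log2 change of all sites by -0.29 in susceptible and -0.39 in resilient H3K27me2 and by -0.61 in the ELS table. By limma the sites past the threshold then rose from 0 to 2 in resilient H3K27me2 and fell from 15 to 6 in the ELS table, all of them lower sites, and the cause was not tested. In these comparisons the sites used for the scaling were selected as differential and mostly higher. The scaling therefore cannot tell a real rise from a difference between libraries. Cadherin directions stayed 48 higher and 2 lower, 18 and 3, 3 and 0, 6 and 2, and 9 and 6. With each library left out in turn, all called cadherin sites kept their direction. Where the groups do not overlap, leaving out a library cannot reverse the direction, so the check could not fail at those sites. By limma 2 to 13 ELS sites then passed after adjustment, and 0 in the defeat tables, where 42 to 48, 18 to 21, 2 to 3 and 7 to 8 had an unadjusted p under 0.05. Of 288 alternative values at 25 leading sites, 278 stayed within the spread between libraries, 10 moved further and 0 reversed. Of those 10, 9 came from the median-ratio scaling, at H3K27me2 and ELS sites, and 1 from a pseudocount of 10, at Cdh13 in the ELS table (-0.87). Among the 278, the refits with a minimum of 10 reads, 1 at each leading site, could not change a value. A gene without a site may have been too shallow or untested.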
